A study of Mus musculus with 9 samples.

Results

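The 32 genes described here are known markers of the fibroblasts and of the outer, adventitial layer of the artery wall. The set is a list of names with no threshold on measured values, drawn up when earlier results of these data were known, and all 32 were found among the 37668 genes of the deposited table. All 32 had 1 FPKM or more in at least 1 group, so all of them were among the 14227 genes analysed. FPKM is the number of sequenced fragments scaled to the length of the transcript and to the total mapped. The libraries were poly-A selected RNA from whole aorta of 9 male mice aged 90 days, on the mixed background 129T2SvEmsJ:C57Blk/6J, with 3 libraries in each of 3 groups. All 9 mice carried the AT1ar floxed allele, in which loxP sites flank the gene of the angiotensin II type 1a receptor (Agtr1a). The Cdh5Cre mice also carried a Cre transgene driven by the promoter of Cdh5, an endothelial cadherin. The Sm22Cre mice carried Cre under the promoter of Tagln, the smooth muscle gene also called SM22. The floxed mice had no Cre transgene, so the presence of a Cre transgene and the deletion of the receptor cannot be told apart. The series title names Marfan syndrome, but the labels give no fibrillin allele for any mouse.

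The adventitia is the collagen-rich sleeve around the muscular media of an artery, and its resident fibroblasts make and organise its matrix. They carry platelet-derived growth factor receptors, secrete enzymes and adaptor proteins that assemble collagen and elastic fibres, and include a population marked by Ly6a (Sca-1), Cd34, Pi16 and Dpp4 that is known to act as a reserve for other fibroblasts. Angiotensin II is known to drive adventitial thickening and inflammation, and the design asks what the aorta expresses when its receptor is deleted in the endothelium or in the smooth muscle. Neither Cre is aimed at fibroblasts, although SM22 promoters are also known to be active in some mesenchymal cells other than smooth muscle.

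Each value below is the authors' single FPKM for a group, made from its 3 libraries together. The spread between mice and the sequencing depth are therefore unknown, and no difference below could be tested or set against replicate error. A difference is given as a log2 ratio of (FPKM + 1), and a gene was counted as past the mark at 2-fold or at 1.5-fold on that scale. Folds written as such are plain ratios of FPKM. The FPKM values summed to 607867 in Cdh5Cre, 500015 in Sm22Cre and 495724 in floxed, a ratio of 1.23 between Cdh5Cre and floxed. Haemoglobin genes made up 4.18% of the sum in Cdh5Cre, 1.80% in Sm22Cre and 0.811% in floxed. The targeted gene Agtr1a was low in every group, at 1.32 FPKM in Cdh5Cre, 1.21 FPKM in Sm22Cre and 1.75 FPKM in floxed. The smooth muscle genes Tagln and Myh11 were high, Tagln at 4477 FPKM in Cdh5Cre, 4112 FPKM in Sm22Cre and 4089 FPKM in floxed. Acta2, another defining smooth muscle gene, was listed at 0 in all groups with a status that marks a failed estimate.

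The 32 genes together stood higher in Cdh5Cre than in the other groups. They summed to 7574 FPKM in Cdh5Cre, 4944 FPKM in Sm22Cre and 5171 FPKM in floxed, which were 1.25%, 0.989% and 1.04% of each group's FPKM sum in that order. Their median level was 94.0 FPKM in Cdh5Cre, 73.0 FPKM in Sm22Cre and 81.4 FPKM in floxed. Levels ran from the surface peptidase Dpp4, between 2.15 and 2.33 FPKM in the 3 groups, to the actin-severing protein gelsolin (Gsn), which alone held 27.7% of the sum in Cdh5Cre, 31.7% in Sm22Cre and 33.3% in floxed. In all 3 groups 28 of the 32 genes were above 10 FPKM, and 12 were above 100 FPKM. All the genes that define the label were thus present, Pdgfra included. Whole aorta holds several cell types, however, and more fibroblasts cannot be told apart from more RNA per fibroblast.

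**Figure D1:**
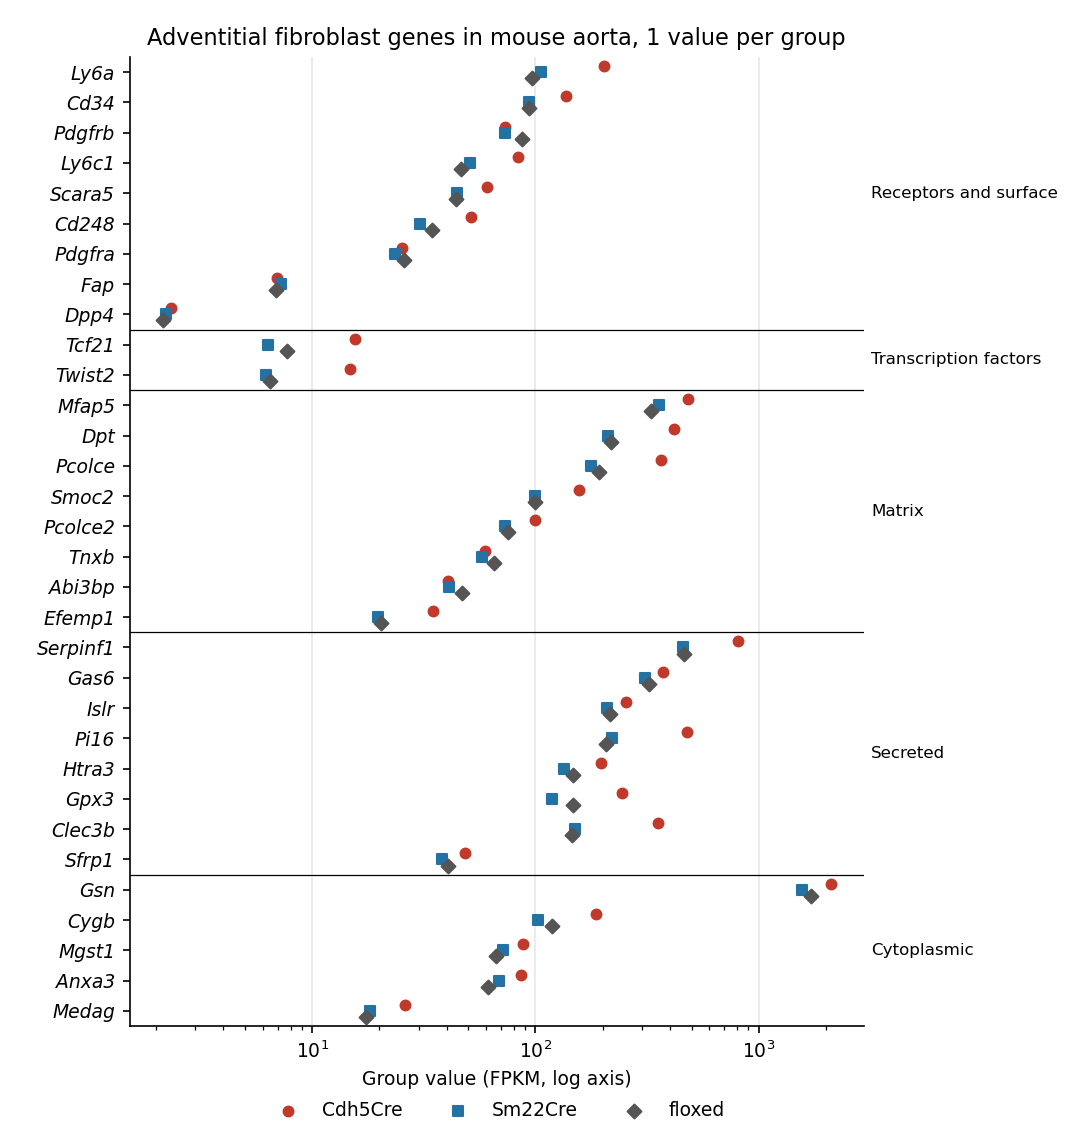
FPKM of the 32 genes in Cdh5Cre, Sm22Cre and floxed aorta, on a log axis, with 1 point per group and no replicate error available. Levels run from about 2 FPKM for Dpp4 to 2099 FPKM for Gsn in Cdh5Cre, and for most genes the Sm22Cre and floxed points lie close together with the Cdh5Cre point to their right.

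Of the 32 genes, 28 were higher in Cdh5Cre than in floxed and 4 were lower (Pdgfra, Pdgfrb, Tnxb and Abi3bp), where 51.7% of all genes analysed were higher. The split was 22 higher and 10 lower after each group was divided by its FPKM sum, a scaling under which 29.1% of all genes were higher and their median was -0.23. The median log2 ratio was 0.54 (interquartile range 0.25 to 0.81), against a median of 0.02 over all genes analysed (interquartile range -0.25 to 0.30). The 1.5-fold mark was reached upward by 13 of the 32, against 8.34% of all genes, and downward by 0. The 2-fold mark was reached upward by 4 of the 32, Clec3b, Pi16, Twist2 and Ly6a, against 1.2% of all genes. None of these 4 reached that mark after division by the FPKM sum, Pi16 and Ly6a did not after quantile normalization, and Clec3b, Twist2 and Ly6a did not with the trend described next removed.

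Transcript length and GC content moved with this comparison across the whole table. Short transcripts and those with a higher GC content were higher in Cdh5Cre, and long ones lower. A surface in length and GC content took up 45.7% of the variance of the log2 ratio over 12317 protein-coding genes. After this trend was subtracted from every gene, 30 of the 32 (all but Pdgfrb and Tnxb) were higher in Cdh5Cre against 49.8% of all genes, and the median was 0.44 against -0.00. The 1.5-fold mark was then reached by 10 of the 32 against 3.19% of all genes, and the 2-fold mark by 1 (Pi16) against 0.503%.

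**Figure D2:**
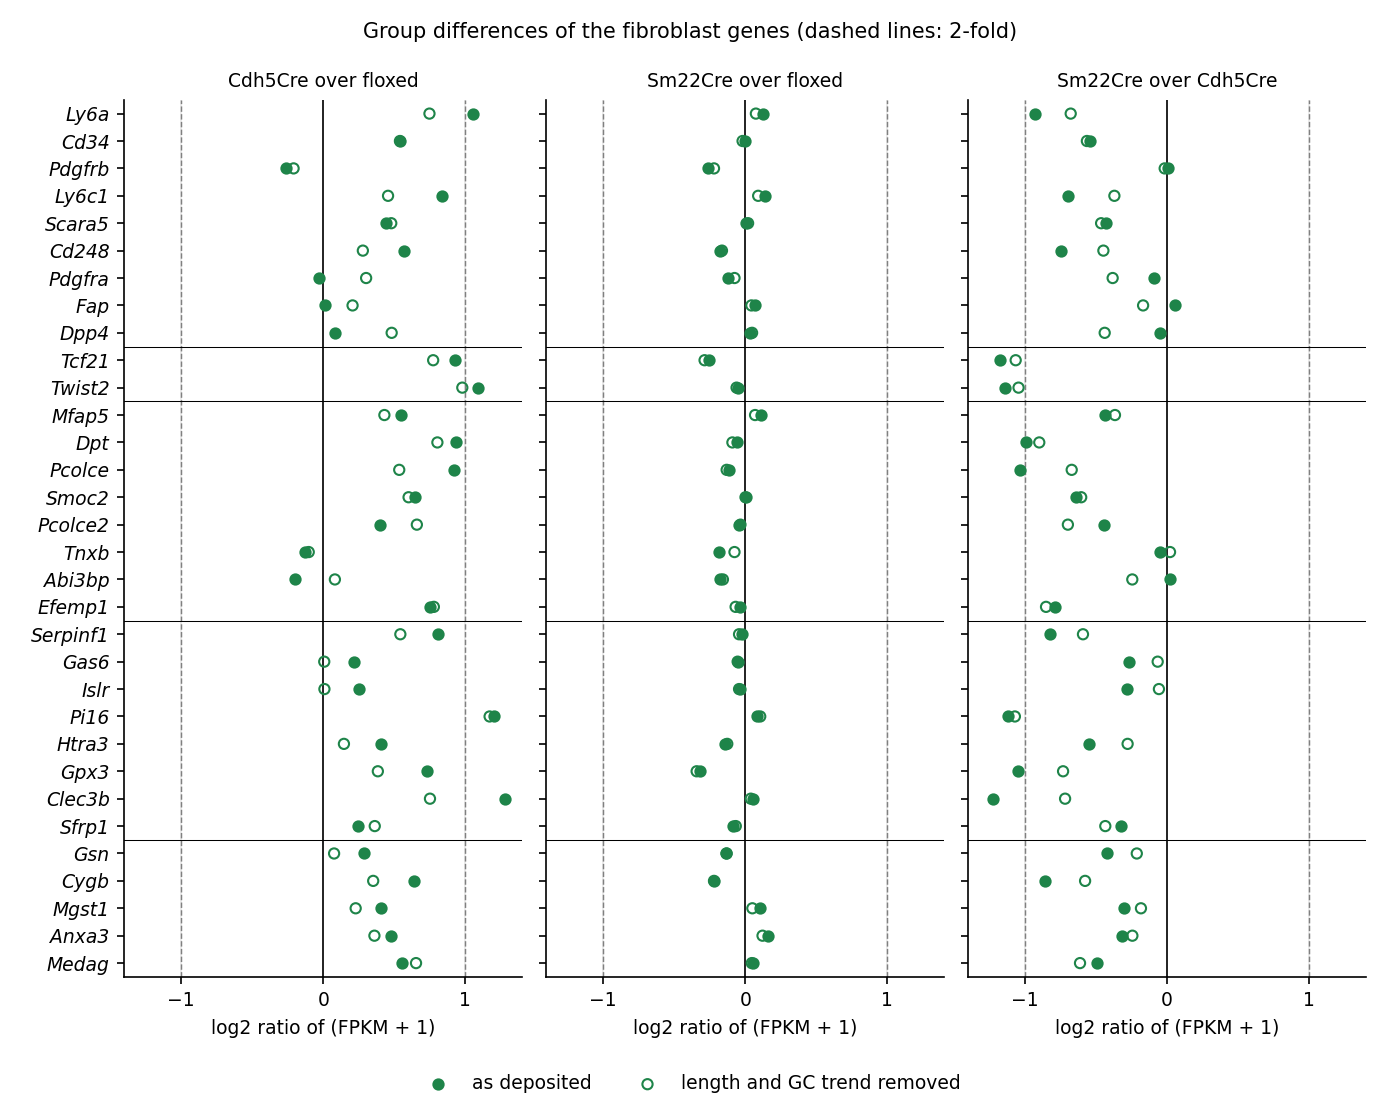
Log2 ratios of (FPKM + 1) for each of the 32 genes in the 3 comparisons, with filled points for the deposited values and open points for values with the length and GC trend removed. In Cdh5Cre against floxed 28 of the 32 deposited values lie above 0, in Sm22Cre against floxed all lie between -0.32 and 0.16, and in Sm22Cre against Cdh5Cre 29 lie below 0.

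Promoter sequence is shown for 4 of the genes that stood furthest from floxed in Cdh5Cre: the secreted protein gene Pi16, the transcription factor gene Twist2 and the matrix genes Dpt and Pcolce. Each is the 250 bases before the RefSeq start on build GRCm38.p6, written 5′ to 3′ on the gene's strand. Pi16 is at chr17:29318632-29318881 (+), Twist2 at chr1:91801211-91801460 (+), Dpt at chr1:164796413-164796662 (+) and Pcolce at chr5:137611405-137611654 (-). Capitals mark the CCAAT box (CCAAT), the GC box (GGGCGG, or CCGCCC where it lies on the other strand) and an E-box (CAGCTG), the motif class that basic helix-loop-helix factors such as Twist2 and Tcf21 are known to bind.
Pi16: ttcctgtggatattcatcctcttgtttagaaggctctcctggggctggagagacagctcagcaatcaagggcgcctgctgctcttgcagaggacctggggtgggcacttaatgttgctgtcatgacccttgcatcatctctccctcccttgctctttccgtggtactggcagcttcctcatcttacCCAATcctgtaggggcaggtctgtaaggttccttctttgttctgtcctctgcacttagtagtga
Twist2: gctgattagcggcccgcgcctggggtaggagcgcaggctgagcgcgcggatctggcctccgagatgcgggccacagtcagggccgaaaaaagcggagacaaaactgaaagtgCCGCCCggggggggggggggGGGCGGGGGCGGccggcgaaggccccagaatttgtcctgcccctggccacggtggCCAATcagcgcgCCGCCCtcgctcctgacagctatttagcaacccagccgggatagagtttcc
Dpt: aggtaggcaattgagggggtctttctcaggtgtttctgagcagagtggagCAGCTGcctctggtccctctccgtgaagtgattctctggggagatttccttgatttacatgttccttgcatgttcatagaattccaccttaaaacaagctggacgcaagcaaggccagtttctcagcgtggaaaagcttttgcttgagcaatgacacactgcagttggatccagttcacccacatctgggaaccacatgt
Pcolce: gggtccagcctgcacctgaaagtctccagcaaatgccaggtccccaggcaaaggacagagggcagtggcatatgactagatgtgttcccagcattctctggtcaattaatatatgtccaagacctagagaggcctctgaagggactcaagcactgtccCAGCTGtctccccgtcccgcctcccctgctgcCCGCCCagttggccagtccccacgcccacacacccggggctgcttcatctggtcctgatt
A RefSeq promoter was at hand for 20 of the 32 genes, and 5 motifs were searched on both strands. The CAGCTG E-box was present in 7 of the 20 (35%), namely Dpt, Gsn, Htra3, Islr, Ly6c1, Pcolce and Pcolce2, against 11.9% of the promoters of the genes analysed and 12.8% of all 27025 promoters. The GC box was present in 8 of the 20 (40%) against 59.4% of the promoters of the genes analysed, and the CCAAT box in 6 (30%) against 36.2%. The TATA box (TATAAA) was in 2 (10%) against 6.28%, and the AP-1 site (TGANTCA) in 2 (10%) against 4.11%. A match in these windows is a description of the letters and not evidence of binding, and the 7 genes with the E-box ranged widely in Cdh5Cre against floxed, from 0.25 for Islr to 0.93 for Dpt.

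Of the 9 receptors and surface proteins, 7 were higher in Cdh5Cre than in floxed, against 51.7% of all genes, with a median log2 ratio of 0.44. The 2 platelet-derived growth factor receptors, which carry the main growth signal of mesenchymal cells, were the exceptions. Pdgfra (ENSMUSG00000029231; mm9 chromosome 5, 75548316 to 75594229), the receptor most used to define fibroblasts, had 25.2 FPKM in Cdh5Cre, 23.6 FPKM in Sm22Cre and 25.7 FPKM in floxed. Its log2 ratio of -0.03 in Cdh5Cre against floxed was 0.30 with the length and GC trend removed, so its sign depended on that step. Pdgfrb, the receptor shared by fibroblasts, pericytes and smooth muscle, had 72.7 FPKM in Cdh5Cre, 72.8 FPKM in Sm22Cre and 87.4 FPKM in floxed. Its log2 ratios against floxed were -0.26 in both Cre groups. Both receptors have long transcripts, of 6834 bases for Pdgfra and 5423 bases for Pdgfrb.

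Ly6a (ENSMUSG00000075602; mm9 chromosome 15, 74825308 to 74828064), which encodes the stem and progenitor antigen Sca-1, had 202 FPKM in Cdh5Cre, 106 FPKM in Sm22Cre and 96.7 FPKM in floxed. That is 2.09-fold higher in Cdh5Cre than in floxed, with a log2 ratio of 1.05 as deposited and 0.75 with the trend removed. Its neighbour on the same chromosome, Ly6c1 (mm9 chromosome 15, 74875447 to 74879260), another small GPI-anchored surface protein, had 83.3 FPKM in Cdh5Cre, 51.1 FPKM in Sm22Cre and 46.2 FPKM in floxed. The 2 genes stood well apart from floxed in Cdh5Cre but close to it in Sm22Cre, where their log2 ratios were 0.13 for Ly6a and 0.14 for Ly6c1. Of the 75-base windows of Ly6c1's transcript, 23.2% also occur in the transcripts of Ly6c2 or Ly6a, and 2.38% of those of Ly6a occur in another gene, so reads can be split between these paralogs. Cd34, a sialomucin of progenitors and vessels, had 137 FPKM in Cdh5Cre, 93.5 FPKM in Sm22Cre and 93.7 FPKM in floxed, 1.46-fold higher in Cdh5Cre than in floxed. Ly6a, Ly6c1 and Cd34 are also known to be made by endothelial cells. In Cdh5Cre 17 of 18 endothelial markers were higher than in floxed, against 51.7% of all genes. Robo4, among those higher, passed the 1 FPKM filter only through Cdh5Cre. The 18 markers summed to 715 FPKM in Cdh5Cre, 513 FPKM in Sm22Cre and 457 FPKM in floxed. The part of endothelial cells in the values of Ly6a, Ly6c1 and Cd34 was not tested.

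Cd248 (endosialin), a surface glycoprotein of mesenchymal cells, had 51.6 FPKM in Cdh5Cre, 30.3 FPKM in Sm22Cre and 34.4 FPKM in floxed, a log2 ratio of 0.57 in Cdh5Cre that lay just under the 1.5-fold mark. Scara5, a ferritin scavenger receptor, had 60.4 FPKM in Cdh5Cre, 44.5 FPKM in Sm22Cre and 44.2 FPKM in floxed. A pair of neighbouring serine peptidases had deposited values close together in the 3 groups. Dpp4 (mm9 chromosome 2, 62168130 to 62308970) had 2.33 FPKM in Cdh5Cre, 2.22 FPKM in Sm22Cre and 2.15 FPKM in floxed. Fap (mm9 chromosome 2, 62339000 to 62412132), known as a marker of activated fibroblasts, had 6.94 FPKM in Cdh5Cre, 7.24 FPKM in Sm22Cre and 6.87 FPKM in floxed. The log2 ratios in Cdh5Cre against floxed, 0.08 for Dpp4 and 0.01 for Fap, were below 0 after division by the FPKM sum, and Fap's also after scaling by the median ratio. With the length and GC trend removed they were 0.48 for Dpp4 and 0.21 for Fap.

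Both transcription factors were among the genes furthest above floxed in Cdh5Cre. Twist2 (ENSMUSG00000007805; mm9 chromosome 1, 93698038 to 93744605), a basic helix-loop-helix repressor of mesenchyme and dermis, had 14.8 FPKM in Cdh5Cre, 6.18 FPKM in Sm22Cre and 6.44 FPKM in floxed, and so was 2.30-fold higher in Cdh5Cre than in floxed. Tcf21 (ENSMUSG00000045680; mm9 chromosome 10, 22537085 to 22539934), a factor of the same family known to direct epicardial cells towards a fibroblast fate, had 15.6 FPKM in Cdh5Cre, 6.33 FPKM in Sm22Cre and 7.75 FPKM in floxed. Its plain ratio in Cdh5Cre against floxed was 2.01-fold, while its log2 ratio of (FPKM + 1) was 0.92 and missed the 2-fold mark. With the trend removed the log2 ratios were 0.98 for Twist2 and 0.77 for Tcf21.

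Of the 8 genes of matrix structure and assembly, 6 were higher in Cdh5Cre than in floxed, against 51.7% of all genes, with a median log2 ratio of 0.60. The 1.5-fold mark was reached by 4 of the 8 (Dpt, Pcolce, Efemp1 and Smoc2), against 8.34% of all genes. The authors' status in this comparison was OK for Dpt but marked the estimates of Pcolce, Efemp1 and Smoc2 as failed (FAIL). Dpt (ENSMUSG00000026574; mm9 chromosome 1, 166726863 to 166754397), dermatopontin, which binds decorin and speeds collagen fibril formation, had 419 FPKM in Cdh5Cre, 211 FPKM in Sm22Cre and 219 FPKM in floxed. Pcolce (mm9 chromosome 5, 138046331 to 138070230), which enhances the cleavage of the C-terminal propeptide of procollagen, had 363 FPKM in Cdh5Cre, 177 FPKM in Sm22Cre and 192 FPKM in floxed. Its log2 ratio in Cdh5Cre against floxed was 0.92 as deposited and 0.53 with the trend removed. Its relative Pcolce2 had 99.8 FPKM in Cdh5Cre, 73.1 FPKM in Sm22Cre and 75.4 FPKM in floxed, and its log2 ratio moved the other way with that step, to 0.66 from a deposited 0.40. The paralogs were therefore 1.89-fold (Pcolce) and 1.32-fold (Pcolce2) higher in Cdh5Cre than in floxed as deposited, an order that was reversed once length and GC content were taken into account.

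Efemp1 (fibulin-3), an elastic fibre protein, had 34.8 FPKM in Cdh5Cre, 19.8 FPKM in Sm22Cre and 20.3 FPKM in floxed. Smoc2, a secreted calcium-binding matricellular protein, had 156 FPKM in Cdh5Cre, 100.025 FPKM in Sm22Cre and 99.5 FPKM in floxed. Mfap5, a glycoprotein of fibrillin microfibrils, had 482 FPKM in Cdh5Cre, 356 FPKM in Sm22Cre and 329 FPKM in floxed. These 3 genes were 1.72-fold (Efemp1), 1.57-fold (Smoc2) and 1.46-fold (Mfap5) higher in Cdh5Cre than in floxed. The remaining matrix genes have long transcripts and were not higher as deposited. Tnxb, the large collagen-binding glycoprotein tenascin-X, had 59.6 FPKM in Cdh5Cre, 57.4 FPKM in Sm22Cre and 65.3 FPKM in floxed. Abi3bp, a matrix protein also called tarsh, had 40.6 FPKM in Cdh5Cre, 41.1 FPKM in Sm22Cre and 46.7 FPKM in floxed. With the trend removed their log2 ratios in Cdh5Cre against floxed were -0.10 for Tnxb and 0.08 for Abi3bp.

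All 8 secreted enzymes, inhibitors and signalling proteins were higher in Cdh5Cre than in floxed, against 51.7% of all genes, with a median log2 ratio of 0.57. However, Sfrp1, Gas6 and Islr were lower after division by the FPKM sum and Gas6 also after quantile normalization. The largest ratio of the 32 genes in the deposited values belonged to Clec3b (ENSMUSG00000025784; mm9 chromosome 9, 123060064 to 123066548), which encodes the plasminogen-binding protein tetranectin. Clec3b had 354 FPKM in Cdh5Cre, 151 FPKM in Sm22Cre and 145 FPKM in floxed and was 2.43-fold higher in Cdh5Cre than in floxed. Its transcript is short, at 992 bases, and its log2 ratio was 1.28 as deposited and 0.75 with the trend removed. Pi16 (ENSMUSG00000024011; mm9 chromosome 17, 29455822 to 29466358), peptidase inhibitor 16, known as a marker of the fibroblast reserve, had 478 FPKM in Cdh5Cre, 219.8 FPKM in Sm22Cre and 207 FPKM in floxed. It was 2.31-fold higher in Cdh5Cre than in floxed. With a transcript of 3994 bases, longer than the 3120-base median of protein-coding genes, its log2 ratio was 1.20 as deposited and 1.17 with the trend removed, the largest of the 32 after that step. It was 0.84 with quantile normalization and 0.91 after division by the FPKM sum, both under the 2-fold mark.

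Serpinf1, the antiangiogenic pigment epithelium-derived factor, had 812 FPKM in Cdh5Cre, 457 FPKM in Sm22Cre and 464 FPKM in floxed, 1.75-fold higher in Cdh5Cre than in floxed. Gpx3, the secreted selenium-dependent glutathione peroxidase, had 245 FPKM in Cdh5Cre, 118 FPKM in Sm22Cre and 147 FPKM in floxed. Gpx3 was thus highest in Cdh5Cre and lowest in Sm22Cre, with log2 ratios against floxed of 0.73 in Cdh5Cre and -0.32 in Sm22Cre. Htra3, a secreted serine protease, had 196 FPKM in Cdh5Cre, 134 FPKM in Sm22Cre and 148 FPKM in floxed. The other secreted members differed less. Sfrp1, a secreted Wnt antagonist, had 48.1 FPKM in Cdh5Cre, 38.2 FPKM in Sm22Cre and 40.5 FPKM in floxed. Gas6, the ligand of the Axl, Tyro3 and Mertk receptors, had 374 FPKM in Cdh5Cre, 309.5 FPKM in Sm22Cre and 321 FPKM in floxed. Islr, also called Meflin, a GPI-linked or secreted protein of mesenchymal stromal cells, had 255 FPKM in Cdh5Cre, 209.7 FPKM in Sm22Cre and 215 FPKM in floxed. With the trend removed the log2 ratios in Cdh5Cre against floxed were 0.36 for Sfrp1 and 0.01 for both Gas6 and Islr.

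The 5 cytoplasmic and membrane-bound members were higher in Cdh5Cre than in floxed, against 51.7% of all genes, with a median log2 ratio of 0.48. However, Gsn was lower after division by the FPKM sum or quantile normalization. Gsn, gelsolin, had 2099 FPKM in Cdh5Cre, 1568 FPKM in Sm22Cre and 1720.0 FPKM in floxed. It ranked 29 by FPKM in Cdh5Cre, 29 in Sm22Cre and 25 in floxed. Cygb, cytoglobin, a haem protein that regulates nitric oxide in the vessel wall, had 186 FPKM in Cdh5Cre, 102 FPKM in Sm22Cre and 119 FPKM in floxed, and was the member of this set that reached the 1.5-fold mark. Its log2 ratio in Cdh5Cre against floxed was 0.64 as deposited and fell short of that mark at 0.47 with quantile normalization, 0.35 with the trend removed and 0.34 after division by the FPKM sum. Cygb shares its listed locus with Prcd, which reached 16.9 FPKM in 1 group. Mgst1, a microsomal glutathione transferase, had 88.3 FPKM in Cdh5Cre, 71.3 FPKM in Sm22Cre and 66.4 FPKM in floxed. Medag, known from adipocyte differentiation, had 26.1 FPKM in Cdh5Cre, 18.2 FPKM in Sm22Cre and 17.5 FPKM in floxed, and 45.5% of its 75-base windows also occur in the transcripts of Gm20488. Anxa3, a calcium-dependent membrane-binding annexin, had 86.0 FPKM in Cdh5Cre, 68.8 FPKM in Sm22Cre and 61.4 FPKM in floxed, the highest ratio in Sm22Cre against floxed of all 32 genes (0.16).

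In Sm22Cre the 32 genes lay close to their floxed values. Of the 32, 20 were lower and 12 higher in Sm22Cre, where 47.9% of all genes were lower. Their log2 ratios ran from -0.32 (Gpx3) to 0.16 (Anxa3), with a median of -0.04. No member reached the 1.5-fold mark in either direction, against 1.54% of all genes. Beside Gpx3, the lowest were Pdgfrb (-0.26), Tcf21 (-0.25) and Cygb (-0.22). With no replicate error, differences of this size cannot be told from none.

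Sm22Cre against Cdh5Cre uses the same Cdh5Cre values as the first comparison and is given beside it, not as a second finding. Of the 32 genes, 29 were lower in Sm22Cre than in Cdh5Cre and 3 were higher (Pdgfrb, Fap and Abi3bp), where 50.7% of all genes were lower. After division by the FPKM sum the split was 25 lower and 7 higher, where 27.6% of all genes were lower. The median log2 ratio was -0.52, and 14 genes passed the 1.5-fold mark downward, against 7.58% of all genes. The 2-fold mark was reached downward by 6 genes, Clec3b (-1.22), Tcf21 (-1.18), Twist2 (-1.14), Pi16 (-1.12), Gpx3 (-1.05) and Pcolce (-1.04), against 1.24% of all genes. Gpx3, Pcolce and Tcf21 thus passed this mark although they had not passed it in Cdh5Cre against floxed, while Ly6a (-0.93) had passed it there and did not here. With the trend removed 31 of the 32 (all but Tnxb) were lower against 49.2% of all genes, 13 passed the 1.5-fold mark against 3.3%, and 3 the 2-fold mark (Twist2, Tcf21 and Pi16) against 0.633%.

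Length divided the 32 genes in Cdh5Cre against floxed. Their transcripts had a median of 2551 bases, from 844 (Ly6c1) to 12209 (Tnxb). All 11 genes with transcripts under 2000 bases were higher in Cdh5Cre, with log2 ratios from 0.40 to 1.28 and a median of 0.84. The 5 genes with transcripts over 5000 bases (Pdgfra, Pdgfrb, Dpp4, Tnxb and Abi3bp) ran from -0.26 to 0.08, with a median of -0.13, and include the 4 genes lower in Cdh5Cre. Short transcripts were higher in Cdh5Cre across the whole table too, and the shares of all genes of these lengths were not counted. Spearman's rho between log2 ratio and length was -0.66 over the 32 genes and -0.58 over all 12317 protein-coding genes, a description over genes that share the same libraries. With the trend removed the medians were 0.53 for the 11 short and 0.08 for the 5 long transcripts, and rho over the 32 genes was -0.30. With GC content, rho in Cdh5Cre against floxed was 0.15 over the 32 genes and 0.53 over all protein-coding genes. In Sm22Cre against floxed length and GC content took up 3.86% of the variance over all genes, and in Sm22Cre against Cdh5Cre 47.1%. In Sm22Cre against floxed rho with length was -0.36 over the 32 genes and -0.24 over all protein-coding genes. With GC content it was -0.53 over the 32 genes and -0.02 over all protein-coding genes. In Sm22Cre against Cdh5Cre rho over all protein-coding genes was 0.55 with length and -0.58 with GC content. Whether the relation to length and GC content comes from the tissue or from the libraries was not tested.

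**Figure D3:**
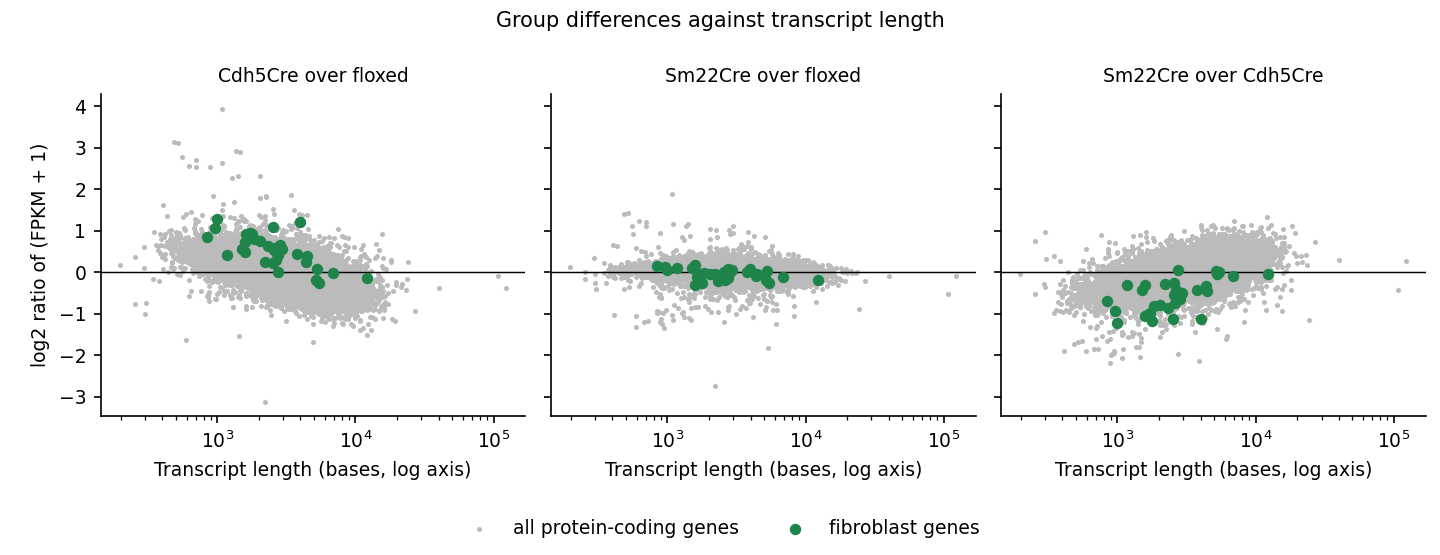
Log2 ratio of (FPKM + 1) against transcript length in bases (log axis) in the 3 comparisons, with the 32 genes in green over all protein-coding genes in grey. In Cdh5Cre against floxed the short transcripts of the set lie above 0 and its 5 transcripts over 5000 bases lie between -0.26 and 0.08, a relation shared by the grey points. In Sm22Cre against floxed the relation is weaker, with a Spearman's rho of -0.36 over the 32 genes and -0.24 over all protein-coding genes.

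The reliability of the estimates was uneven. The authors' status was FAIL for 14 of the 32 genes in Cdh5Cre against floxed (43.8%, against 27.7% of all genes). They were Pi16, Serpinf1, Htra3, Islr, Pcolce, Efemp1, Smoc2, Mfap5, Tnxb, Abi3bp, Gsn, Mgst1, Pdgfra and Cd34. The 18 genes with status OK had a median log2 ratio of 0.56 with 17 higher, against 51.9% of all genes with that status. The 14 with FAIL had a median of 0.48 with 11 higher. Of the 32 genes, 7 share a listed locus with another gene.

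Lists of other fibroblast genes were read beside the 32. Over all genes analysed, 51.7% were higher in Cdh5Cre than in floxed, 8.34% reached the 1.5-fold mark upward and 1.2% the 2-fold mark. Among 24 further genes of fibroblasts and their matrix, 21 were higher in Cdh5Cre than in floxed with a median of 0.30. After division by the FPKM sum their median was 0.00, where the median of all genes was -0.23. The 1.5-fold mark was reached by 6 of the 24 and the 2-fold mark by 1, Igfbp6, a binding protein of insulin-like growth factor II. Igfbp6 had 158 FPKM in Cdh5Cre, 70.8 FPKM in Sm22Cre and 73.1 FPKM in floxed. Among 10 other genes reported in Pi16-type fibroblasts the split was 6 higher and 4 lower, with a median of 0.20. Has1, among those higher, passed the 1 FPKM filter only through Cdh5Cre. The 1.5-fold mark was reached upward by 3 of the 10 and downward by 2, where 856 of the 14227 genes analysed reached it downward. After division by the FPKM sum the median of the 10 was 0.02, against -0.23 for all genes. Their most abundant, Limch1 and Efhd1, were lower in Cdh5Cre than in floxed. Limch1, an activator of non-muscle myosin, had 41.9 FPKM in Cdh5Cre, 80.7 FPKM in Sm22Cre and 83.8 FPKM in floxed. It was 2.00-fold lower in Cdh5Cre than in floxed, with a log2 ratio of -0.98 as deposited and -0.69 with the trend removed. The status of Limch1 was FAIL, and it shares its listed locus with other genes. Efhd1, a mitochondrial calcium-binding protein, had 88.3 FPKM in Cdh5Cre, 96.9 FPKM in Sm22Cre and 96.0 FPKM in floxed. Markers of activated fibroblasts gave 3 higher and 6 lower of 9, with a median of -0.09, among them periostin (Postn) at 831 FPKM in Cdh5Cre, 899.9 FPKM in Sm22Cre and 840.0 FPKM in floxed. Connective tissue growth factor (Ccn2) had 728 FPKM in Cdh5Cre, 783 FPKM in Sm22Cre and 532 FPKM in floxed. Genes of Col15a1-type fibroblasts, 7 in number, had a median of 0.22. After division by the FPKM sum it was -0.08, against -0.23 for all genes. Of these, Hspg2 (perlecan) had 562 FPKM in Cdh5Cre, 325 FPKM in Sm22Cre and 353 FPKM in floxed, and Fabp4 had 361 FPKM in Cdh5Cre, 337 FPKM in Sm22Cre and 309.97 FPKM in floxed. Adventitial progenitor genes were higher for 5 of 7, with a median of 0.41. Among these Klf4 had 36.3 FPKM in Cdh5Cre, 27.3 FPKM in Sm22Cre and 26.7 FPKM in floxed, whereas the hedgehog receptor Ptch1 had 16.2 FPKM in Cdh5Cre, 19.7 FPKM in Sm22Cre and 24.4 FPKM in floxed.

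Ligands and receptors known to act with members of the set were listed too. Over all genes analysed, 51.7% were higher in Cdh5Cre than in floxed and 48.2% were lower. All 3 receptors of Gas6 and its relative Pros1 were lower in Cdh5Cre than in floxed, with a median of -0.31, while Gas6 itself stood at 0.22 as deposited. The most abundant, Axl, had 198 FPKM in Cdh5Cre, 249.97 FPKM in Sm22Cre and 287 FPKM in floxed. Pros1, protein S, had 35.6 FPKM in Cdh5Cre, 38.1 FPKM in Sm22Cre and 39.4 FPKM in floxed. With the length and GC trend removed, Gas6 stood at 0.01 in Cdh5Cre against floxed and Pros1 at 0.08. The receptors then stood at -0.53 for Axl, whose status was FAIL, -0.35 for Tyro3 and -0.10 for Mertk. The 4 platelet-derived growth factor genes had a median of -0.18, with 2 higher and 2 lower. Pdgfa had 62.7 FPKM in Cdh5Cre, 57.4 FPKM in Sm22Cre and 55.5 FPKM in floxed, and Pdgfd had 43.8 FPKM in Cdh5Cre, 64.9 FPKM in Sm22Cre and 61.5 FPKM in floxed. Of 17 genes of the Wnt pathway, 7 were higher and 10 lower, with a median of -0.09. The 9 ligands and secreted antagonists among them gave 6 higher and 3 lower, and the 8 receptors, co-receptors and the target Axin2 gave 1 higher (Lrp5) and 7 lower. The 2-fold mark, reached upward by 1.2% of all genes, was reached by Wnt11, at 11.3 FPKM in Cdh5Cre, 4.18 FPKM in Sm22Cre and 4.85 FPKM in floxed. The status of Wnt11 was FAIL in every comparison, and it shares its listed locus with another gene.

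Markers of other cell types also differed between the groups, and their part in the values above was not tested. Over all genes analysed, 51.7% were higher in Cdh5Cre than in floxed and 1.2% reached the 2-fold mark upward. In Sm22Cre against floxed 47.9% of all genes were lower. Red cell genes, 5 of 7 analysed, were all higher in Cdh5Cre than in floxed with a median of 2.57, summing to 25452 FPKM in Cdh5Cre, 9028 FPKM in Sm22Cre and 4019.8 FPKM in floxed. Platelet genes, all 8 higher in Cdh5Cre with a median of 2.09, summed to 278 FPKM in Cdh5Cre, 91.9 FPKM in Sm22Cre and 48.7 FPKM in floxed. These blood genes were also higher in Sm22Cre than in floxed, by a median of 1.12 for red cells and 0.81 for platelets, where the median of the 32 genes was -0.04. Heart muscle genes, 12 of 14 higher in Cdh5Cre with a median of 0.57, summed to 1642 FPKM in Cdh5Cre, 484 FPKM in Sm22Cre and 1065 FPKM in floxed. Mesothelial genes, which mark a lining of the body cavities, were higher for all 8 in Cdh5Cre (median 0.36) and lower for all 8 in Sm22Cre (median -0.40), summing to 57.9 FPKM in Cdh5Cre, 32.2 FPKM in Sm22Cre and 42.3 FPKM in floxed. Endothelial markers had a median of 0.55 in Cdh5Cre against floxed, and 6 of the 18 reached the 2-fold mark, namely Cldn5, Emcn, Egfl7, Sox18, Ecscr and Plvap. Smooth muscle markers had a median of 0.02, with 7 higher and 7 lower. After division by the FPKM sum that median was -0.27, where the median of all genes was -0.23. Pericyte markers had a median of -0.06 over 7 genes, Schwann cell markers 0.41 over 7, lymphoid markers 0.73 over 5, macrophage markers 0.18 over 12 and adipocyte markers 0.14 over 9. The lymphoid median cannot be read as a difference, because Cd3g, Cd79a, Cd79b and Lck passed the 1 FPKM filter only through Cdh5Cre. Robo4 (endothelial), Wt1 (mesothelial), Sox10 (Schwann cell) and Gp6 (platelet) also passed it only through Cdh5Cre. They count in the splits and medians above, but their being higher there cannot be read as a difference either. The 5 lymphoid genes, of 10 listed, summed to 8.35 FPKM in Cdh5Cre, 4.11 FPKM in Sm22Cre and 2.31 FPKM in floxed. The macrophage and adipocyte medians were below 0 after division by the FPKM sum (-0.11 for macrophages and -0.15 for adipocytes) and with the trend removed (-0.13 and -0.03 in the same order). The median of all genes was -0.23 after that division and -0.00 with the trend removed.

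**Figure D4:**
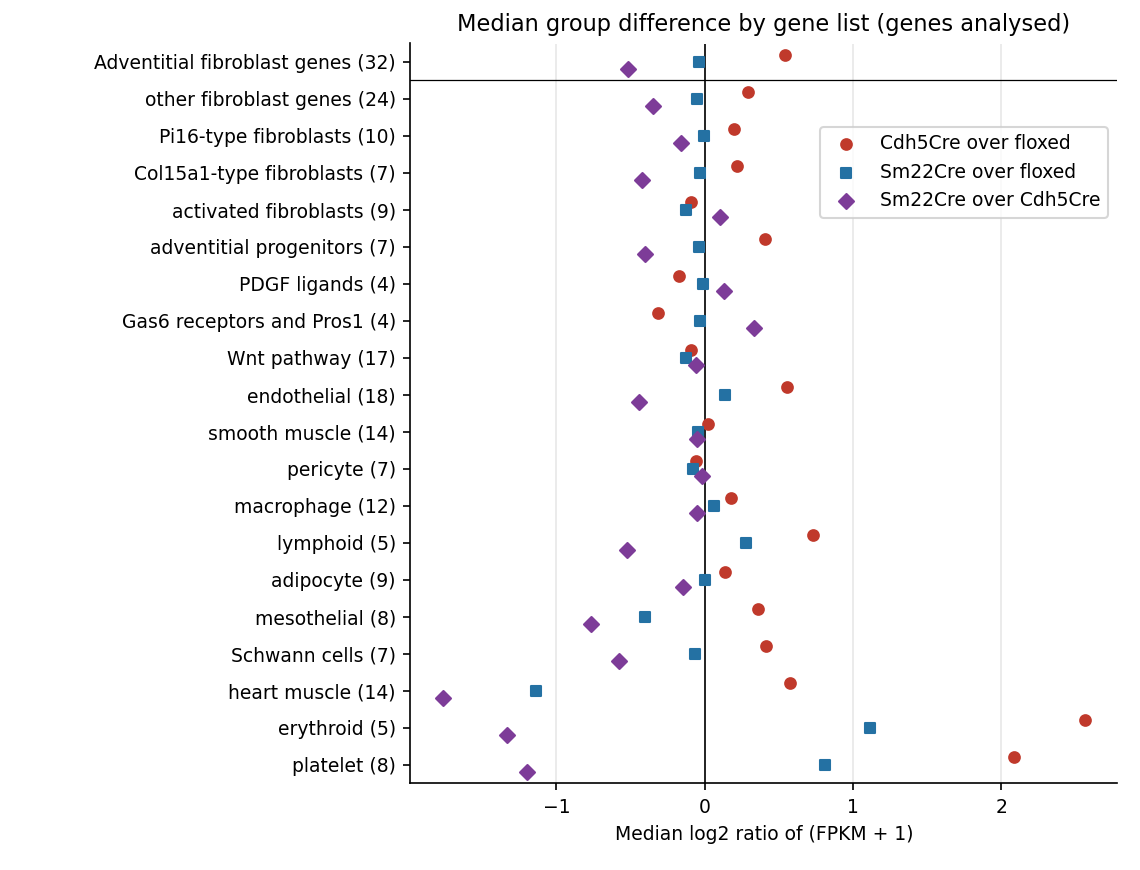
Median log2 ratio of (FPKM + 1) for the 32 adventitial fibroblast genes and for lists of related pathways and cell type markers, in the 3 comparisons, with the number of genes analysed in brackets. The 32 genes have medians of 0.54, -0.04 and -0.52, and red cell and platelet genes lie furthest right in Cdh5Cre against floxed.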

How the data were processed

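Per the labels' protocols, RNA of frozen aorta was made into stranded poly-A libraries and read as paired 75-base reads on a HiSeq4000. The submitters' processing notes name Cufflinks 1.3.0, TopHat2 2.0.8, SAMtools 0.1.7, Bowtie2 2.1.0 and the build mm9. The annotation and the use of strand are not given in the sources used here. The deposited table gives 1 FPKM per gene and group for each pair of groups, made by the authors from the 3 libraries together. No counts or depths were used, so no interval, SD or p-value could be computed, and tests planned on single libraries were replaced by a rule of size. Group membership came from the sample titles. Each group is listed in 2 pairs; 15 genes differed between pairs, none of them a member. The listed starts were raised by 1.

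Log2 ratios were computed on FPKM + 1 for genes that reached 1 FPKM in any group, after 7 genes with a failed status (HIDATA) were removed. The marks were 2-fold and 1.5-fold. A surface of degree 3 in log2 length and GC content of the longest protein-coding transcript (GENCODE M21, which also gave symbols) was fitted by least squares and subtracted. Only this subtraction was tested on simulated data, with a linear trend in log2 length and GC content. The other steps were not tested in that way. Sequence windows of 75 bases were compared between transcripts. Promoters came from RefSeq on GRCm38.p6. Python 3.11.15, pandas 2.3.3, numpy 2.4.6, scipy 1.17.1 and matplotlib 3.10.9 were used. Every member is named, and outside the members the list genes past the 2-fold mark or the 2 most abundant were eligible. Some others are named for a stated reason, such as passing the filter only through Cdh5Cre. Not all eligible genes of blood, heart and other cell types are printed. The members and lists were chosen with earlier results of these data known.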

Additional observations from a re-analysis of the deposited data

How the results depend on the processing

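In the 11 alternatives, which varied the pseudocount, the filter, the scaling, the status, shared loci and the length trend, the median of the 32 genes lay between 0.25 and 0.56 in Cdh5Cre against floxed, between -0.05 and -0.03 in Sm22Cre against floxed and between -0.60 and -0.25 in Sm22Cre against Cdh5Cre. In Sm22Cre against floxed 0 genes reached the 1.5-fold mark in any of them. In Cdh5Cre against floxed the median was 0.35 with quantile normalization, 0.44 with the length and GC trend removed, 0.25 after division by the FPKM sum and 0.33 after division by that sum without haemoglobin and mitochondrial genes. The 4 genes past 2-fold became 2, 1, 0 and 1 in the same order, and the 13 past 1.5-fold became 8 among the 18 with status OK and 7 after division by the FPKM sum. In Sm22Cre against Cdh5Cre the median was -0.36 with quantile normalization, -0.25 after division by the FPKM sum and -0.32 without haemoglobin and mitochondrial genes. There the 6 genes past 2-fold downward became 2 with quantile normalization, 3 with the trend removed, 0 by the FPKM sum and 1 without haemoglobin and mitochondrial genes, and the 14 past 1.5-fold became 9 with status OK and 8 by the FPKM sum. With the trend removed, 0.503% of all genes passed 2-fold upward in Cdh5Cre against floxed and 0.633% downward in Sm22Cre against Cdh5Cre. Under the other settings the shares of all genes past the marks were not counted. The counts of members there can therefore not be called many or few. The status setting tests fewer genes. Division by the FPKM sum scales every gene of a group by the same factor, so the median of all genes moved too. In Cdh5Cre against floxed it went from 0.02 to -0.23, and to -0.16 without haemoglobin and mitochondrial genes. In Sm22Cre against Cdh5Cre it went from -0.01 to 0.23, and to 0.17 without those genes. The cause of the changes with quantile normalization or with the trend removed was not tested. Both divisions by the FPKM sum were chosen after seeing the data. No paired analysis was possible because the table holds 1 value per group, and leaving out each replicate was not run for the same reason. Depth is unknown.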

Other observations

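The nearest relatives of Ly6a and Ly6c1 were looked at after those values were seen. Of 9 further genes of the Ly6 family, 2 had 1 FPKM or more in at least 1 group, both on mm9 chromosome 15. Both were higher in Cdh5Cre than in floxed, where 51.7% of all genes were higher. Ly6e had 99.4 FPKM in Cdh5Cre, 60.9 FPKM in Sm22Cre and 56.4 FPKM in floxed, and so was 1.76-fold higher in Cdh5Cre than in floxed. Ly6c2, whose transcript shares sequence with Ly6c1, had 8.88 FPKM in Cdh5Cre, 5.41 FPKM in Sm22Cre and 5.13 FPKM in floxed, 1.73-fold higher in Cdh5Cre than in floxed.

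The deposited values of the collagen genes Col1a1 and Col1a2, from the wider fibroblast list, differed although their products assemble together. Col1a1 had 832 FPKM in Cdh5Cre, 533 FPKM in Sm22Cre and 594 FPKM in floxed, a log2 ratio of 0.48 in Cdh5Cre against floxed. Col1a2, the partner chain of type I collagen, had 896 FPKM in Cdh5Cre, 871 FPKM in Sm22Cre and 900.5 FPKM in floxed, a log2 ratio of -0.01. Both genes were chosen after their values were seen. The authors' status was FAIL for both in every comparison, and Col1a1 shares its listed locus with another gene. The contrast between the chains therefore rests on failed estimates, and whether it holds in the tissue was not tested. Among the same list Thy1, a surface marker of fibroblasts, had 35.6 FPKM in Cdh5Cre, 17.95 FPKM in Sm22Cre and 20.8 FPKM in floxed, and Ogn, a small leucine-rich proteoglycan, had 301 FPKM in Cdh5Cre, 384 FPKM in Sm22Cre and 373 FPKM in floxed.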
